A study of Mus musculus with 22 samples.

Results

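The acute phase proteins described here are 10 genes of the mouse liver: the serum amyloid A genes Saa1, Saa2, Saa3 and Saa4, the orosomucoids Orm1, Orm2 and Orm3, lipocalin 2 (Lcn2), and the short pentraxins Crp (C-reactive protein) and Apcs (serum amyloid P component). They were taken by symbol from a table of 23909 gene symbols, and all 10 were present. All 10 also passed the filter on low values, together with 12264 genes in all.

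The libraries came from livers of male C57BL/6 mice that the labels call fasted. The JAX group (n = 4) came from Jackson and the TAC group (n = 4) from Taconic, while the GF group (n = 4) was germ-free. Germ-free mice inoculated with cecum material from a JAX or a TAC donor and kept for 4 weeks formed the groups GF_JAX (n = 5) and GF_TAC (n = 5). A fast of 16 h is stated for the inoculated mice. No genetic modification is named for any group, and ages and the donor cecum pools are not described. Nothing in the labels says that each library was a separate animal, so the p-values below measure the spread between these libraries, which may be technical.

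Hepatocytes make most acute phase proteins and secrete them into blood. During infection or injury, interleukin 6 acts through its receptor, JAK kinases and STAT3, and interleukin 1 acts through NF-kB, and both act together with the C/EBP factors on these genes. Among the members, Saa1 and Saa2 are the strongly induced liver forms and travel on high-density lipoprotein, Saa3 is made largely outside hepatocytes, and Saa4 is the constitutive form. The orosomucoids bind basic drugs and steroids, and Lcn2 binds the iron-carrying siderophores of bacteria. In the mouse Apcs is the major acute phase pentraxin, whereas Crp responds little.

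The bases just upstream of 5 members are shown because these genes varied most between libraries and because they include a pair of near-identical neighbours on chromosome 7 and another pair on chromosome 4. The sequences are from RefSeq (build GRCm38.p6), cover the 250 bases before the annotated gene start, and are written 5′ to 3′ on the strand of the gene. They lie at chr7:46742981-46743230 (minus strand) for Saa1, chr7:46751583-46751832 (plus strand) for Saa2, chr4:63362199-63362448 (plus strand) for Orm2, chr4:63355908-63356157 (plus strand) for Orm3 and chr2:32387740-32387989 (minus strand) for Lcn2. Capitals mark matches to TTGCNNAA on either strand, a pattern of the C/EBP family.
Saa1: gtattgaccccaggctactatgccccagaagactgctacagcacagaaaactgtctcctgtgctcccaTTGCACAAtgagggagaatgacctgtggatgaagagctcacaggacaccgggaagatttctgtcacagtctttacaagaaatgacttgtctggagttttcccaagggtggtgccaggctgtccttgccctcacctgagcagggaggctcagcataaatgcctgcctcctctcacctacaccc
Saa2: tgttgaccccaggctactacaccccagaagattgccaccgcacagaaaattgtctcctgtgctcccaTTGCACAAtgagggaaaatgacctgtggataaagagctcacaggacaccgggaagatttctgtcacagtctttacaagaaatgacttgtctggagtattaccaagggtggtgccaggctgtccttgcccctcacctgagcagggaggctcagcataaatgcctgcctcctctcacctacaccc
Orm2: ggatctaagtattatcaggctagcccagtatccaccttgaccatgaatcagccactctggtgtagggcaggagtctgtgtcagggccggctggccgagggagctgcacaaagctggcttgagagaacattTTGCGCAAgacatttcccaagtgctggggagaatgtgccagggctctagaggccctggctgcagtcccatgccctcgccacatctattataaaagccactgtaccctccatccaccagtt
Orm3: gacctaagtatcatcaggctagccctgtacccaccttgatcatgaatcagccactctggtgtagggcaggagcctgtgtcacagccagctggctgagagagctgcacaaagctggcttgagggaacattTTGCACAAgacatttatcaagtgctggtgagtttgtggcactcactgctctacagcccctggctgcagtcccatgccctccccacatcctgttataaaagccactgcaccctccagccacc
Lcn2: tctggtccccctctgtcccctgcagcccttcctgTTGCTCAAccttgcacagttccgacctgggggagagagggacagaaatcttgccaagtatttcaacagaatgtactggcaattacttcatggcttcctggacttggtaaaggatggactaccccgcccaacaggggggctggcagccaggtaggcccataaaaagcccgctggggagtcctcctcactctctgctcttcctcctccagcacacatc

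The table of upstream sequences held 9 of the 10 members, and Orm1 is named only. Searched on both strands, TTGCNNAA matched 7 of the 9 members, and 9.56% of all 32851 promoters of the same length held it. These letters were narrowed after the promoters had been looked at, so the share among members is a description. The STAT pattern TTCNNNGAA matched Apcs alone among the 9, against 7.02% of all promoters, and an NF-kB consensus of 10 bases matched none, against 1.41%. The upstream bases of Saa1 and Saa2 were 95.6% identical and carried the same match, TTGCACAA, at bases -182 to -175 and -183 to -176. Those of Orm2 and Orm3 were 89.0% identical and carried TTGCGCAA at -120 to -113 and TTGCACAA at -121 to -114.

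Near-identity also touches the measured values. The Saa1 and Saa2 transcripts in the annotation GENCODE M21 were 94.4% identical, and 21.3% of the 36-base windows of Saa1 also occur in Saa2. Orm1 and Orm2 were 91.0% identical, with 25.7% shared windows, and Orm2 and Orm3 were 88.5% identical. How the authors assigned reads that fit several copies is not given in the sources used here, so the split of reads within each of these families is uncertain. RefSeq lists Saa1 and Saa2 as synonyms of each other, so the symbols in the table may be exchanged relative to current use.

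The RPKM unit (reads per kilobase, scaled by library size) allows levels of different genes to be compared per length. Depth, read from the steps of the low values, was between 1.35 and 3.78 M counted reads per library, deepest in JAX (at least 2.29 M) and shallowest in GF_JAX (at most 2.85 M). The slope of RPKM on transcript length divided the libraries into 2 types. It was positive in all JAX and TAC libraries and in GF_JAX 1 and GF_JAX 4, and negative in the other 12, so library type and the difference between GF and the vendor mice can be told apart only through GF_JAX. The most abundant liver transcripts shared a top level: after multiplication by depth, Alb, Apoa1 and Apoe varied by 2.13%, 1.93% and 1.55% (coefficient of variation over 22 libraries), against 29.0%, 29.6% and 29.9% before. For a transcript near that level the RPKM falls as depth rises. Among the members, Saa1 and Saa2 reached 101% and 97.6% of it in library TAC 2, so higher amounts may not have been resolved there. The level is not a strict limit, since the hepcidin gene Hamp lay at 107% to 119% of it in the TAC libraries. Orm1 lay between 43.7% and 68.7% of the level in all libraries, and the other 7 members stayed under 45%.

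The levels of the members spanned a wide range. Per length and over 22 libraries, Orm1 had the highest median level, 467 RPKM, followed by Saa1 with 319, Crp with 244, Saa4 with 199, Apcs with 124 and Saa2 with 113 RPKM. Saa3, Orm2, Lcn2 and Orm3 had medians of 46.9, 45.4, 31.9 and 25.8 RPKM. The spans of all neighbours in this order overlapped, and the order was not tested. It differed by group: in JAX the mean of Saa1 (90.7 RPKM) lay below those of Crp (187), Saa4 (99.6) and Apcs (96.7 RPKM). In reads, the members rested on 13 or more reads per library except for Orm3, which had 0 to 86.

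**Figure D1:**
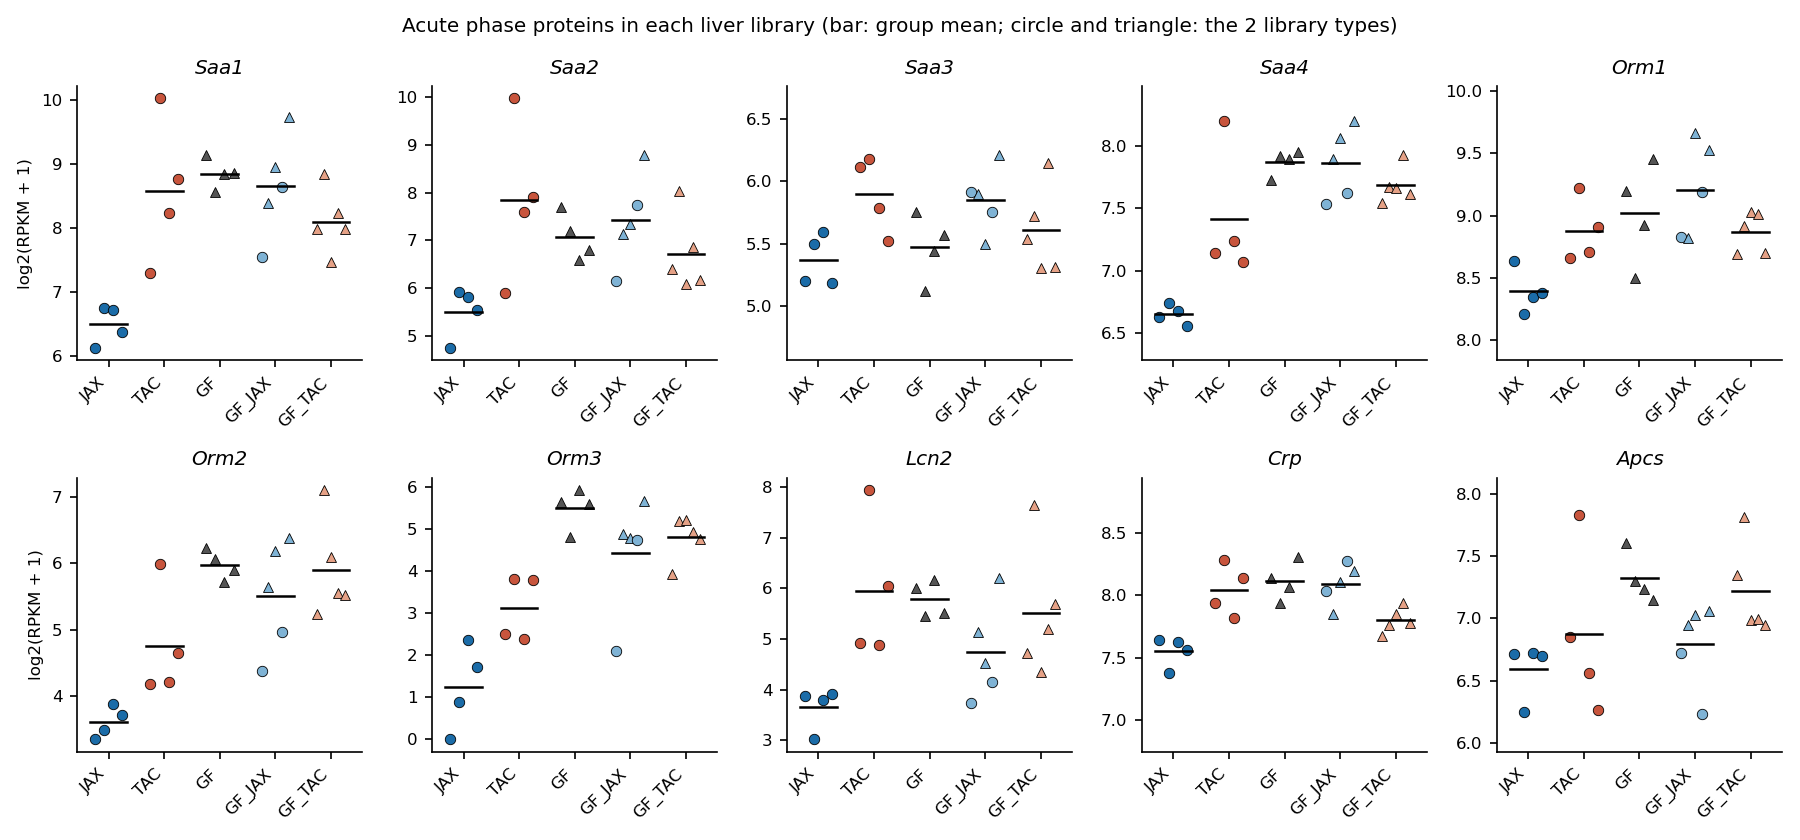
Each panel shows 1 acute phase gene in all 22 libraries on a log2(RPKM + 1) axis whose range differs between panels, with a bar at the group mean and circles and triangles for libraries of positive and negative length slope. JAX libraries lie lowest for most genes, and TAC 2 stands above the other TAC libraries for Saa1, Saa2, Saa4, Orm2, Lcn2 and Apcs.

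The inducible serum amyloids were low in every JAX library and several times higher in most others. Saa1 was at 69.1, 107, 105 and 81.7 RPKM in the JAX libraries, at 157, 1040.0, 301 and 435 RPKM in the TAC libraries, and at 563, 379, 458 and 462 RPKM in the GF libraries. In the inoculated mice Saa1 was at 187, 336, 497, 399 and 854 RPKM in GF_JAX and at 254, 458, 177, 299 and 251 RPKM in GF_TAC. Every one of the other 18 libraries lay above the highest JAX library, and those 4 groups overlapped each other.

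Saa2 was at 25.8, 59.4, 55.3 and 45.4 RPKM in JAX, at 58.4, 1004, 191 and 239 RPKM in TAC, and at 208, 145, 95.3 and 110.2 RPKM in GF. Saa2 in recipients was at 69.6, 140.3, 160.1, 213 and 440.1 RPKM in GF_JAX and at 83.9, 263, 67.0, 115 and 70.6 RPKM in GF_TAC. TAC 1 lay within the JAX range, and all other non-JAX libraries lay above it. The ratio of Saa2 to Saa1 was 0.374 to 0.556 in JAX, 0.208 to 0.383 in GF, 0.322 to 0.534 in GF_JAX and 0.281 to 0.574 in GF_TAC. In TAC it was 0.372 to 0.966, the last in TAC 2, where both genes were at the shared top level and their ratio may not be resolved.

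The other serum amyloids moved over a smaller range. Saa4 was at 97.8, 106, 101 and 93.3 RPKM in JAX, at 140.3, 294, 150.4 and 133 RPKM in TAC, and at 211, 241, 237 and 247 RPKM in GF. After inoculation Saa4 was at 184, 238, 267, 196 and 293 RPKM in GF_JAX and at 185, 203, 202, 242 and 195 RPKM in GF_TAC. All JAX libraries lay below all libraries of the other groups, and outside TAC 2 all TAC libraries lay below all GF, GF_JAX and GF_TAC libraries. Saa3 had group means of 40.7 ± 6.00 RPKM in JAX, 59.7 ± 12.3 in TAC, 43.9 ± 8.09 in GF, 57.6 ± 10.6 in GF_JAX and 48.9 ± 12.9 in GF_TAC (SD, n = 4, 4, 4, 5 and 5), and the groups overlapped.

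Of the orosomucoids, Orm2 and Orm3 differed between groups by more than Orm1. Orm2 was at 9.17, 10.2, 13.8 and 12.1 RPKM in JAX, at 17.1, 62.3, 17.6 and 24.1 RPKM in TAC, and at 74.5, 65.9, 51.8 and 58.7 RPKM in GF. Orm2 in recipients was at 19.8, 49.2, 71.8, 30.2 and 82.2 RPKM in GF_JAX and at 36.6, 137, 67.3, 46.0 and 44.8 RPKM in GF_TAC. No JAX library overlapped any other group, and TAC 2 was the only TAC library above 24.1 RPKM.

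Orm3 was close to the limit of detection in JAX, with 0, 2, 8 and 4 reads, that is 0, 0.854, 4.09 and 2.31 RPKM. It was at 4.62, 13.0, 4.23 and 12.8 RPKM in TAC and at 49.0, 27.1, 59.5 and 47.3 RPKM in GF. In the inoculated mice Orm3 was at 3.30, 28.3, 26.4, 25.8 and 49.9 RPKM in GF_JAX and at 14.2, 35.6, 35.9, 29.2 and 25.9 RPKM in GF_TAC. JAX, TAC and GF did not overlap, and GF_JAX 1 was the only inoculated library within the JAX range. Orm1 had means of 338 ± 42.4 RPKM in JAX, 474 ± 87.3 in TAC, 533 ± 145 in GF, 607 ± 164 in GF_JAX and 470.1 ± 52.9 in GF_TAC (SD, n = 4, 4, 4, 5 and 5).

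Lcn2 spread widely within groups. It was at 13.6, 7.10, 13.0 and 14.2 RPKM in JAX, at 29.5, 245, 28.4 and 64.9 RPKM in TAC, and at 63.4, 42.6, 70.9 and 44.4 RPKM in GF. Lcn2 in recipients was at 12.3, 34.3, 22.1, 16.7 and 73.1 RPKM in GF_JAX and at 25.4, 199, 19.3, 35.6 and 50.4 RPKM in GF_TAC. TAC 2 and GF_TAC 2 were 3.78 and 3.94 times as high as the next library of their group, and GF_JAX 1 lay within the JAX range.

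The pentraxins spread less, with the highest library of a group at most 2.98 times its lowest. Crp was at 199, 165, 197 and 188 RPKM in JAX, at 244, 311, 224 and 281 RPKM in TAC, and at 280.1, 244, 267 and 316 RPKM in GF. After inoculation Crp was at 261, 230.0, 274, 308 and 291 RPKM in GF_JAX and at 203, 216, 230.2, 245 and 219 RPKM in GF_TAC. All JAX libraries lay below all others. Apcs had means of 96.7 ± 14.3 RPKM in JAX, 127 ± 67.6 in TAC, 160.3 ± 23.5 in GF, 113 ± 24.0 in GF_JAX and 152 ± 43.2 in GF_TAC (SD, n = 4, 4, 4, 5 and 5), with TAC 2 and GF_TAC 2 at 226 and 224 RPKM.

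The comparison of vendors asked whether the livers of TAC and JAX mice differed. All 10 members had a higher mean log2 level in TAC. Their median difference was 0.96 on the log2(RPKM + 1) scale, against 0.00 for all genes tested. Other liver transcripts were also higher: the median was 0.35 over 8 hepatocyte markers. It was 0.38 over 8 acute phase proteins that fall and 0.41 over 21 further ones that rise. Apcs, Orm1, Crp and Saa3 differed by 0.28, 0.48, 0.49 and 0.53. The part of such a shared shift in the member differences was not tested. Of the 10 members 7 did not overlap between the groups, against 4.34% of all genes in that direction. The test called 1 of the 10 higher, against 0.179% of all genes. Saa1 was 4.25-fold higher in TAC (483 ± 388 against 90.7 ± 18.4 RPKM, log2 difference 2.09 ± 0.44 SE, limma adjusted p = 0.0369, higher in 4 of 4 libraries). Saa2 (log2 difference 2.34, adjusted p = 0.160), Lcn2 (2.29, adjusted p = 0.199), Orm3 (1.88, adjusted p = 0.268) and Orm2 (1.15, adjusted p = 0.378) did not pass in limma. Crp (0.49, adjusted p = 0.0643) and Saa4 (0.76, adjusted p = 0.0963) had smaller differences and smaller errors. The Saa1 call was lost with depth as a term (1.85, limma adjusted p = 0.142) and without TAC 2 and GF_TAC 2 (1.61, adjusted p = 0.128). After correction for the shared top level Saa1 did not pass either (2.60, limma adjusted p = 0.0839). Crp passed in its place (0.50, limma adjusted p = 0.0243). That correction capped levels at 95% of the top level, which set Saa1 in TAC 2 to 3082 RPKM, against 1040.0 RPKM measured. As that value was set by the cap, the corrected fit cannot decide the call of Saa1. With no filter on low values, or with only the JAX and TAC libraries fitted, Saa1 did not pass (limma adjusted p = 0.0689 and 0.128). The call was also lost when any single JAX library, TAC 2, TAC 3 or TAC 4 was left out (1.61 to 2.51, limma adjusted p up to 0.151).

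Germ-free and JAX livers differed in most members. The test called 8 of the 10 higher in GF, against 11.7% of all genes in that direction, and 8 did not overlap between the groups, against 12.7%. The median difference was 1.39 on the log2 scale, against 0.01 for all genes tested. It was 0.40 over 8 hepatocyte markers, 0.40 over 8 acute phase proteins that fall and 0.33 over 21 further ones that rise. Among the called members the smallest differences were 0.56 for Crp, 0.62 for Orm1 and 0.73 for Apcs. The part of a shift shared by liver transcripts in the member differences was not tested. Orm3 had the largest difference, 4.25 ± 0.58 SE (45.7 ± 13.6 against 1.81 ± 1.79 RPKM, limma adjusted p = 7.92e-05), from 41 to 86 reads per library in GF. Orm2 was 5.18-fold higher (62.8 ± 9.74 against 11.3 ± 2.04 RPKM, adjusted p = 0.000858), Saa1 5.12-fold higher (465 ± 75.4 against 90.7 ± 18.4 RPKM, adjusted p = 0.00112) and Lcn2 4.37-fold higher (55.3 ± 14.0 against 11.96 ± 3.28 RPKM, adjusted p = 0.0243). Saa4 was 2.33-fold (adjusted p = 0.000194), Apcs 1.65-fold (adjusted p = 0.0449), Orm1 1.54-fold (adjusted p = 0.0298) and Crp 1.48-fold higher (adjusted p = 0.00183). Saa2 (log2 difference 1.57, limma adjusted p = 0.0699) and Saa3 (0.10, adjusted p = 0.720) did not pass. With single libraries left out in turn, Saa1, Saa4, Orm2, Orm3 and Crp kept their calls. Apcs lost its call without any single library (limma adjusted p up to 0.131), Orm1 without JAX 2, JAX 3, JAX 4, GF 1 or GF 4 (up to 0.110), and Lcn2 without JAX 2, GF 1 or GF 3 (up to 0.0716).

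Every GF library had the opposite length slope to every JAX library. With library type as a term none of the 8 passed in limma, and 1.93% of all genes did, against 24% without it. Differences were from 0.19 for Apcs to 2.57 for Orm3, with limma adjusted p from 0.0576 for Crp to 0.872 for Apcs. The difference of Crp grew from 0.56 to 0.67, and those of the other called members shrank. GF_JAX 1 and GF_JAX 4, whose slope had the sign of the JAX libraries, lay above all JAX libraries for Saa1 (187 and 399 RPKM), Saa4 (184 and 196 RPKM), Orm2 (19.8 and 30.2 RPKM) and Crp (261 and 308 RPKM). Both also lay above all JAX libraries for Orm1 (455 and 582 RPKM). For Apcs GF_JAX 1 (105 RPKM) was at the highest JAX level and GF_JAX 4 (74.3 RPKM) lay below the lowest JAX library. For Lcn2 (12.3 and 16.7 RPKM) and Orm3 (3.30 and 25.8 RPKM) GF_JAX 1 lay within the JAX range. Both were the lowest GF_JAX libraries for Saa4, Orm2, Lcn2 and Orm3. The part of library type in the difference from GF was not tested beyond this.

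**Figure D2:**
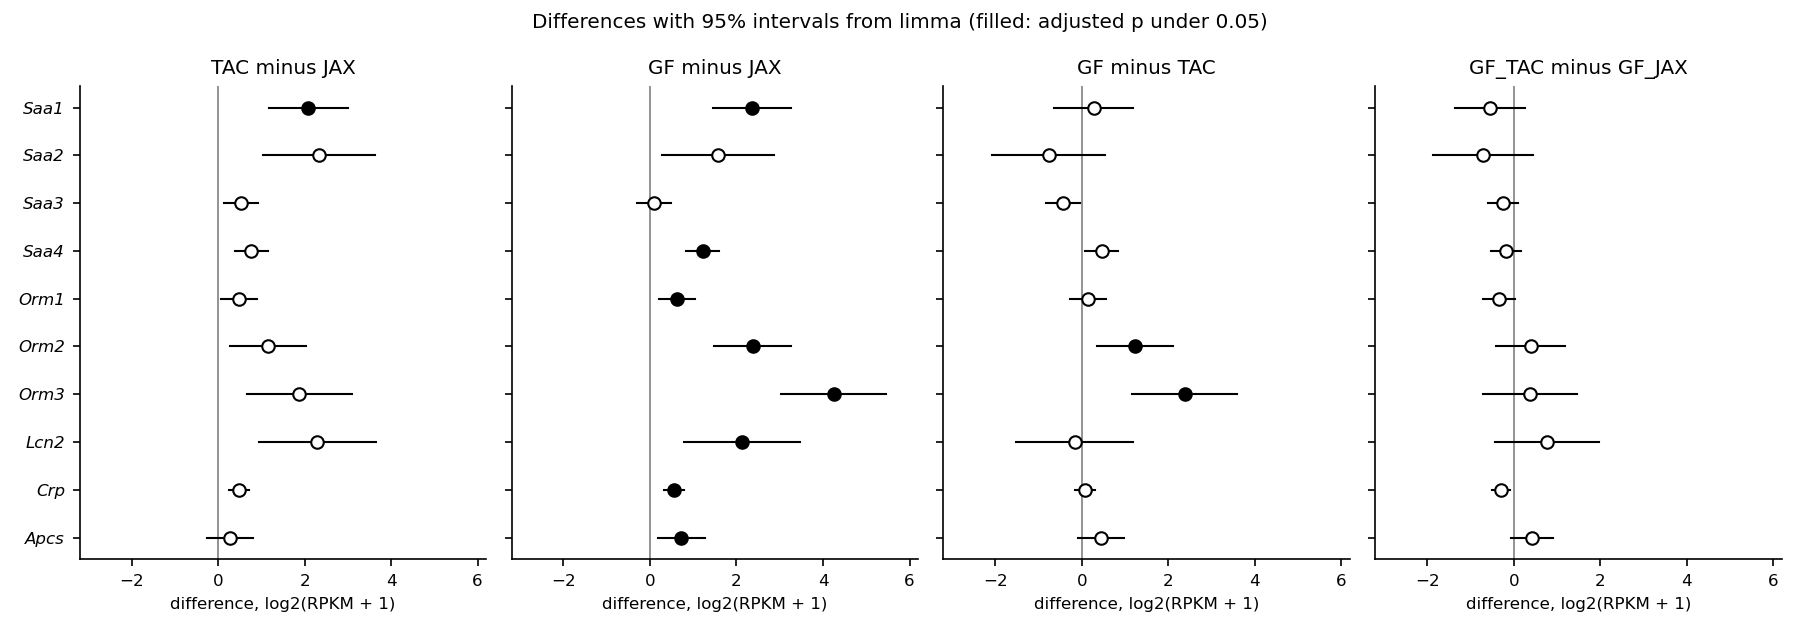
Points are differences in mean log2(RPKM + 1) between groups for each member, with 95% intervals from limma, and filled points have an adjusted p under 0.05. In the comparison of GF with JAX 8 points are filled, in GF against TAC 2, in TAC against JAX 1, and in GF_TAC against GF_JAX none.

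Against TAC, the same GF libraries gave fewer differences. The test called 2 of the 10 higher in GF, against 11.1% of all genes, and 1 did not overlap, against 11.6%. Orm3 was 5.18-fold higher (45.7 ± 13.6 against 8.68 ± 4.91 RPKM, limma adjusted p = 0.00826, no overlap), and Orm2 was 2.34-fold higher (adjusted p = 0.0414), with TAC 2 inside the GF range. Orm2 lost its call without any single library but TAC 2 (1.03 to 1.63, limma adjusted p up to 0.116). With library type as a term these differences were 0.69 for Orm3 (limma adjusted p = 0.818) and -0.18 for Orm2 (adjusted p = 0.952). Saa2 had the lowest difference of GF from TAC, -0.77 with a 95% interval of -2.07 to 0.53.

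Inoculation of germ-free mice gave no called member, with either donor. For GF_JAX against GF the test called 0 of 10, against 0.612% of all genes, and for GF_TAC against GF 0 of 10, against 0.204%. Both comparisons share the GF libraries. At an unadjusted limma p under 0.05 they had 2 members (Saa3 and Apcs) and 1 member (Crp), and 1945 and 1041 of all genes tested. Saa1 differed by -0.19 in GF_JAX (95% interval -1.05 to 0.67) and by -0.75 in GF_TAC (-1.61 to 0.11), and Orm3 by -1.06 (-2.21 to 0.09) and -0.69 (-1.85 to 0.46). Apcs differed by -0.52 in GF_JAX (95% interval -1.03 to -0.02, limma adjusted p = 0.296). At this spread differences of about 1 on the log2 scale were not detectable in Saa2, Orm3 and Lcn2, whose 95% intervals were over 2 wide.

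The donor comparison asked whether recipients of TAC and JAX cecum material differed as the vendor mice did. The test called 0 of 10 members in GF_TAC against GF_JAX, against 0.171% of all genes, and all 10 overlapped. At an unadjusted limma p under 0.05 there was 1 member, Crp (log2 difference -0.29, adjusted p = 0.223), and 1635 of all genes. Lcn2 differed by 0.77 (95% interval -0.44 to 1.97) and Saa2 by -0.72 (-1.88 to 0.45). Without GF_JAX 1 and GF_JAX 4, so that only libraries of negative slope were compared between recipients, the differences of Orm2 and Orm3 turned from 0.39 and 0.36 to -0.17 and -0.31 (limma adjusted p = 0.887 and 0.813).

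The difference between the donor effect in recipients and the vendor effect was itself tested. The test called 2 of 10 members, both lower, against 1.48% of all genes in either direction. Crp differed by -0.78 ± 0.15 SE (limma adjusted p = 0.00864), being 1.41-fold higher in TAC than JAX mice and 1.22-fold lower in GF_TAC than GF_JAX mice. Saa1 differed by -2.64 ± 0.58 SE (limma adjusted p = 0.025), being 4.25-fold higher in TAC than JAX mice and 1.47-fold lower in GF_TAC than GF_JAX mice. Depth moved with these groups: mean depth relative to JAX 1 was 1.32 ± 0.276 in JAX and 0.956 ± 0.109 in TAC, and 0.786 ± 0.279 in GF_JAX and 1.12 ± 0.175 in GF_TAC (SD, n = 4, 4, 5 and 5). With depth as a term the differences were -0.45 for Crp (limma adjusted p = 0.0628) and -2.11 for Saa1 (adjusted p = 0.157), and neither passed. After correction for the shared top level Saa1 did not pass (-3.15, limma adjusted p = 0.059) and Crp did. Saa1 in TAC 2 was set by the cap of that correction here too, so this fit cannot decide the call of Saa1. Saa1 also lost its call without JAX 1 or JAX 4 (limma adjusted p up to 0.059). Other liver transcripts had differences of the same sign here: the median was -0.79 over 8 hepatocyte markers, -0.84 over 8 falling acute phase proteins and -0.69 over 21 further rising ones, against 0.02 for all genes tested. None of these genes passed the adjusted test. An unadjusted limma p under 0.05 was held by 7 of the 8 falling and 16 of the 21 rising proteins. It was held by 2142 of all 12264 genes tested. Alb, the main plasma protein of liver and a transcript at the top level, differed by -0.96 (limma adjusted p = 0.124). The part of a difference shared by these transcripts in the values of Crp and Saa1 was not tested.

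**Figure D3:**
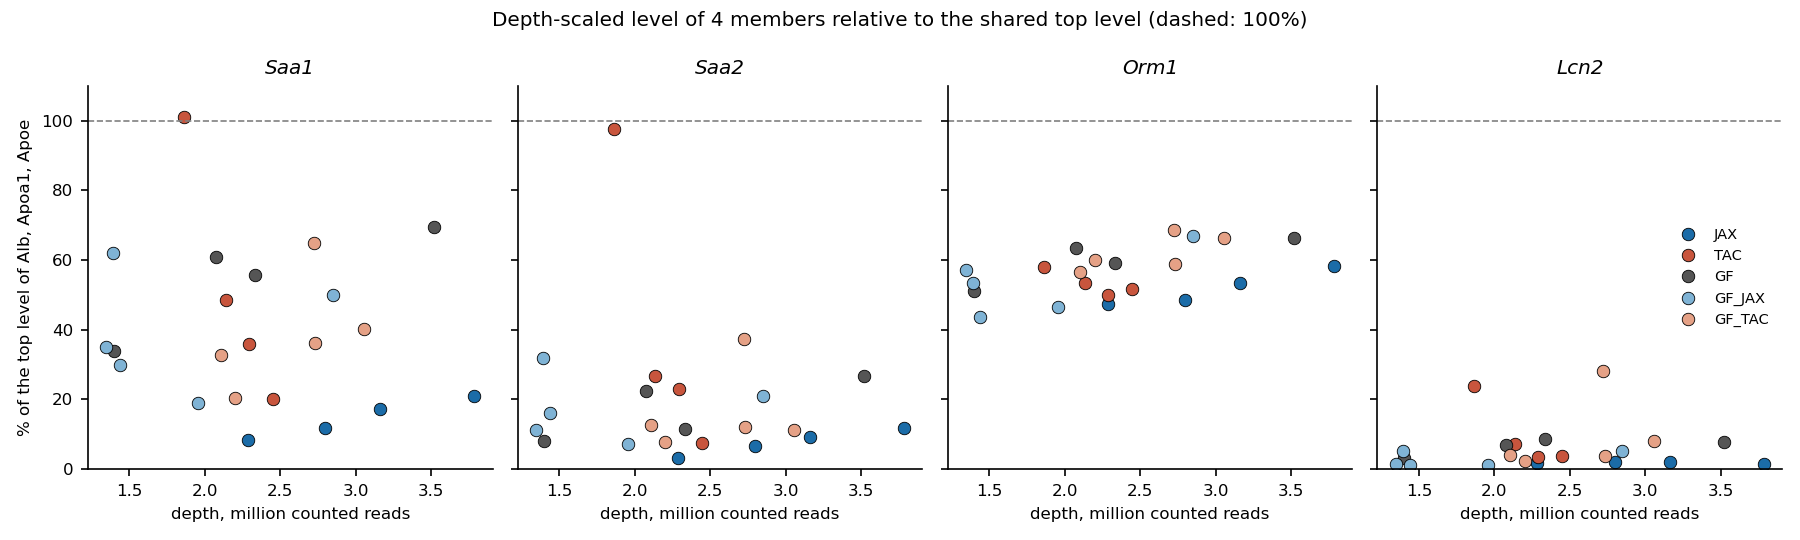
Depth-scaled levels of Saa1, Saa2, Orm1 and Lcn2 are plotted as a percentage of the shared top level of Alb, Apoa1 and Apoe (dashed line at 100%) against library depth in M counted reads, with 1 point per library. TAC 2 reaches the line for Saa1 and Saa2, Orm1 lies between 43.7% and 68.7% in every library, and Lcn2 reaches 28.2% at most.

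Some libraries and some pairs of members stood out within groups. TAC 2 was the highest TAC library for all 10 members, GF_JAX 5 the highest GF_JAX library for 8, and GF_TAC 2 the highest GF_TAC library for 5, while GF_JAX 1 was the lowest GF_JAX library for 6. After subtraction of group means, Pearson r of log2(RPKM + 1) over the 22 libraries was above 0 for all 45 pairs of members, from 0.12 to 0.95, and stayed above 0 for all 45 without the 2 libraries farthest from the median. Of the 45 pairs 16 passed by Pearson r and 4 by both r and Spearman's rho, in a permutation test within groups with adjustment over the 45 pairs. How many pairs of other liver genes have r above 0 or pass was not measured. The counts therefore describe the members and do not set them apart from other genes. No pair with Saa3 passed, and Crp passed with Orm1 alone. The neighbours Saa1 and Saa2 had r = 0.95 and rho = 0.84 (permutation, adjusted p for r = 0.00045), and r = 0.90 without the 2 farthest libraries. Orm2 and Orm3 had r = 0.69 and rho = 0.73 (permutation, adjusted p for r = 0.00247), and r = 0.75 without the 2 farthest libraries. Across gene families, Orm2 and Lcn2 had r = 0.81, rho = 0.65, Saa1 and Lcn2 had r = 0.80, rho = 0.59, and Saa1 and Orm2 had r = 0.79, rho = 0.67 (permutation, adjusted p for r = 0.0127, 0.00697 and 0.00697). By rho these pairs did not pass (permutation, adjusted p = 0.0516, 0.0606 and 0.0516). Without the 2 farthest libraries their r was 0.63, 0.72 and 0.74. Orm3 and Lcn2 passed by both, with r = 0.55 and rho = 0.61 (permutation, adjusted p = 0.038 and 0.0495). Orm1 and Crp had r = 0.76, rho = 0.79 (permutation, adjusted p for r = 0.00697), but r = 0.12 with depth regressed out. Saa3 had the lowest r with most members, from 0.16 with Orm3 to 0.39 with Saa4.

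**Figure D4:**
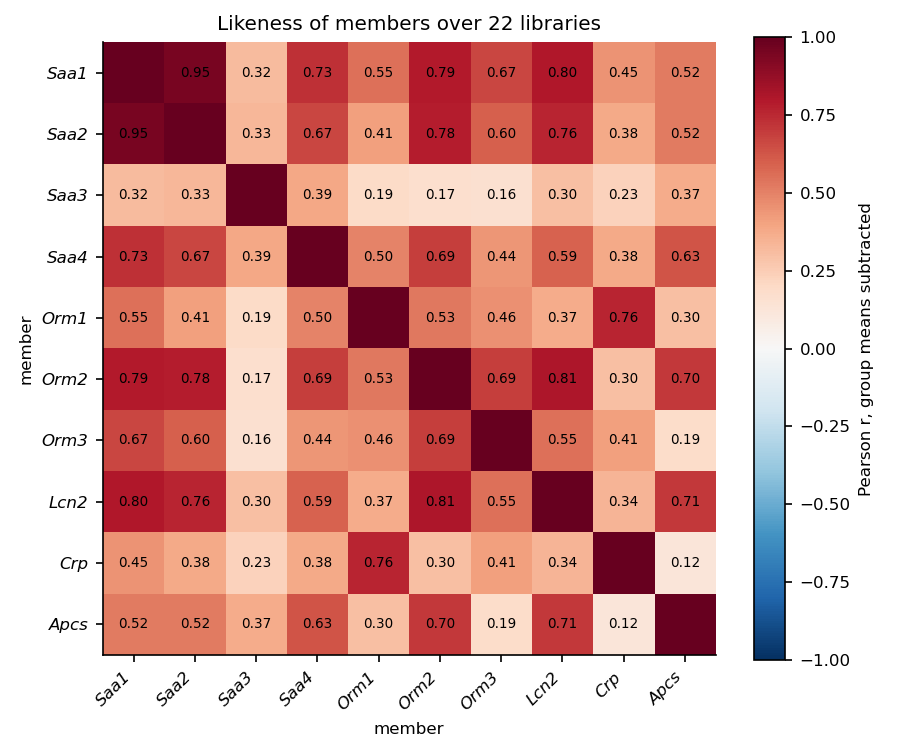
Each cell gives Pearson r between 2 members over 22 libraries after group means were subtracted from log2(RPKM + 1). Saa1, Saa2, Orm2 and Lcn2 form the block of highest values, 0.76 to 0.95, and the row of Saa3 holds values from 0.16 to 0.39.

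Fgl1, a liver-secreted protein of the fibrinogen family that is known to rise in the acute phase, was the tested gene outside the members with the highest r to Saa1 (0.78) and to Orm2 (0.86), and the third for Lcn2 (0.73), over 22 libraries with group means subtracted. It was at 560 RPKM in TAC 2 and 494 RPKM in GF_TAC 2, against 230.2 to 302 RPKM in JAX. Its range was 264 to 560 RPKM in all TAC libraries, 307 to 441 in GF, 247 to 508 in GF_JAX and 242 to 494 in GF_TAC, so JAX overlapped all of these groups but GF. Without these 2 libraries its r was 0.63 with Saa1, 0.75 with Orm2 and 0.48 with Lcn2. Next after Fgl1 came Fuca1 (0.76), Timm10b (0.74), Ang (0.74) and Hmces (0.73) for Saa1, and Prg4 (0.78), Tmem176a (0.78), Pla2g15 (0.78) and Zfp932 (0.77) for Orm2. For Lcn2, Ctcf (0.75) and Zfp874b (0.74) came before Fgl1, and Zrsr2 (0.72) and Dctn5 (0.71) after it. All these genes were picked for the highest r among all genes tested, and their r was not tested. Without TAC 2 and GF_TAC 2 it ran from 0.33 (Dctn5 with Lcn2) to 0.83 (Zfp932 with Orm2).

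Other acute phase proteins did not pass the test in step with the members. Of 21 tested genes of a list of further acute phase proteins that rise, 0 passed in TAC against JAX (limma, median log2 difference 0.41). In GF against JAX 0 passed, with a median of 0.33 (limma). Of all genes 0.294% and 24% passed in these 2 comparisons. The 8 acute phase proteins that fall had medians in the same direction, 0.38 and 0.40, against 0.00 and 0.01 for all genes tested. At an unadjusted limma p under 0.05 there were 10 and 5 of the 21 rising genes, against 1102 and 4789 of all 12264 genes tested. At a single gene, Serpina3n, an inhibitor of serine proteases, was at 215 ± 21.99 RPKM in JAX, 311 ± 106 in TAC and 236 ± 27.3 in GF (limma adjusted p = 0.318 and 0.556 against JAX). Lbp, which binds bacterial lipopolysaccharide, differed from JAX by 0.23 in TAC (limma adjusted p = 0.608) and -0.09 in GF (adjusted p = 0.614). The haptoglobin gene Hp, hemopexin Hpx, the fibrinogen chain Fgg and hepcidin Hamp lay between 58.4% and 141% of the shared top level. Of 8 acute phase proteins that fall, Serpina6, the corticosteroid carrier of plasma, was 1.76-fold higher in GF than in JAX (138 ± 16.1 against 77.6 ± 6.44 RPKM, limma adjusted p = 0.00454), and Alb and Apoa1 were at the top level.

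Of 10 inducing cytokines 4 passed the filter on low values, and Il6 and Il22 were listed at 0 in all 22 libraries. Group means were 10.9 to 27.1 RPKM for Il18 and 8.53 to 11.7 RPKM for Ctf1, a cytokine of the interleukin 6 family. In GF against JAX 1 of the 4 passed the test, where 11.7% of all genes were called higher. It was Il18, 2.25-fold higher in GF than in JAX (26.1 ± 7.52 against 10.9 ± 1.61 RPKM, limma adjusted p = 0.0004). Among receptors and kinases, 2 of 14 rose and 2 fell in GF against JAX, where 24% of all genes passed in either direction. Il1r1, the interleukin 1 receptor, rose by 1.25 on the log2 scale (limma adjusted p = 0.0201), while Jak1, a kinase of the interleukin 6 receptor, fell by 0.49 (adjusted p = 0.00592) and Il22ra1, the interleukin 22 receptor, fell by 0.84 (adjusted p = 0.0186). Il6ra, the interleukin 6 receptor, was at 24.5 ± 8.37 RPKM in JAX and 21.9 ± 3.98 in GF (limma adjusted p = 0.842).

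Of 13 transcription factors 2 rose in GF against JAX, against 11.7% of all genes called higher, and these were Cebpd and Cebpb. Cebpd was at 55.7 ± 4.87 RPKM in GF and 33.6 ± 8.97 in JAX (log2 difference 0.74, limma adjusted p = 0.00144), and Cebpb was at 414 ± 73.8 and 260 ± 25.3 RPKM (0.66, adjusted p = 0.00518). Stat3 was at 44.1 ± 5.94 and 45.6 ± 2.31 RPKM (limma adjusted p = 0.786), and Creb3l3, an endoplasmic reticulum factor of liver, at 229.8 ± 47.5 and 219 ± 20.5 RPKM (adjusted p = 0.753). Of 7 inhibitors 2 rose: Socs3, the feedback inhibitor of STAT3 signalling, was at 12.5 ± 0.872 in GF and 6.28 ± 0.369 RPKM in JAX (limma adjusted p = 0.0325), and Nfkbia, that of NF-kB, was at 148 ± 20.8 and 96.5 ± 6.64 RPKM (adjusted p = 0.00443). Of the 38 tested cytokines, receptors, kinases, factors and inhibitors 0 passed in TAC against JAX, in GF_JAX against GF or in GF_TAC against GF. Of all genes 0.294%, 0.612% and 0.204% passed there. An unadjusted limma p under 0.05 was held by 7, 7 and 2 of the 38, against 1102, 1945 and 1041 of all 12264 genes tested. The limits given above on library type apply to each of these differences of GF from JAX, that of Serpina6 included.

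Markers of other cells were measured beside these results, and the limits on library type apply to their differences of GF from JAX too. Neutrophils carry Lcn2 in their granules, and of 10 neutrophil markers in the table Camp was listed at 0 in all libraries, Mpo in all groups but GF_TAC, and Ltf in TAC and GF_TAC. The summed neutrophil markers were 5.6 to 14.9 RPKM in JAX, 6.64 to 14.0 in TAC, 6.09 to 20.3 in GF, 7.79 to 22.3 in GF_JAX and 4.03 to 14.8 in GF_TAC. The calprotectin genes S100a8 and S100a9 differed between GF and JAX by 0.09 and 0.48 on the log2 scale (limma adjusted p = 0.936 and 0.523). Of 8 Kupffer cell and macrophage markers 4 rose in GF against JAX, against 11.7% of all genes called higher, among them Clec4f (40.2 ± 4.50 against 25.1 ± 8.99 RPKM, limma adjusted p = 0.017) and Vsig4 (13.4 ± 2.59 against 7.26 ± 3.56 RPKM, adjusted p = 0.0331). Their sum was 54.0 to 115 RPKM in JAX, 60.6 to 115 in TAC, 99.3 to 124 in GF, 105 to 145 in GF_JAX and 74.7 to 137 in GF_TAC. In whole liver, more cells of a type and more RNA per cell cannot be told apart, and the part of these cells in the member differences was not tested. All 8 hepatocyte markers were present in every group, with a median log2 difference of 0.35 in TAC against JAX and 0.40 in GF against JAX. In GF against JAX Asgr1, a subunit of the asialoglycoprotein receptor, rose by 0.47 (limma adjusted p = 0.0371) and Apob, the protein of very low density lipoprotein, fell by 0.75 (adjusted p = 0.0386). Their part in the member differences was not tested.

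Immediate early and heat shock genes were also measured, with the same limits on library type for their differences of GF from JAX. Of 14 such genes 1 rose and 5 fell in GF against JAX, where 24% of all genes passed in either direction and 11.7% were called higher. The heat shock gene Hspa1b was at 16.0 ± 4.22 RPKM in GF and 64.7 ± 3.6 in JAX (limma adjusted p = 0.000383), and the immediate early gene Ier2 was at 116 ± 17.4 and 61.2 ± 12.8 RPKM (adjusted p = 0.00325). Their part in the member differences was not tested.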

How the data were processed

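Poly(A) RNA of 22 liver libraries was measured. Per the labels' protocols, RNA was extracted with Trizol, captured on poly(A) beads and made into libraries with a ThruPLEX kit. The deposited values are RPKM made by the authors. The submitters' processing notes name mm9, Bowtie 1.0.0 and Cuffdiff 2.1.1, with roles not given in the sources used here. Left out were 461 empty entries and 27 entries with date numbers as names.

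The members and gene lists were chosen with earlier results of these data known. RPKM was taken to log2 after adding 1, and the 12264 genes that reached 1 RPKM in 4 or more libraries were tested. A single limma model (3.58.1, trend, R 4.3.3) covered 22 libraries in 5 groups, without covariates. Its p-values are two-sided and were adjusted over all tested genes by Benjamini and Hochberg, with a threshold of 0.05. A fold is on the log2(RPKM + 1) scale and understates low genes. There were 7 comparisons: the vendors, the donors in recipients, each inoculated group against GF, GF against each vendor group, and the interaction of donor with vendor.

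Depth came from low values: 4787 of 5332 low genes (89.8%) held whole reads in every library, within 0.02 reads, as did the members. Absolute depth rests on GENCODE M21 lengths, of another build than the values. Summed RPKM was 531282 to 737897 per library. Reads are not independent molecules, so read counts cover counting error only.

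Pairs of members were compared by Pearson r and Spearman's rho with 100000 permutations within groups. Named were all members, up to 3 passing genes per list and comparison, 15 fixed genes of the lists, and the 5 genes most like Saa1, Orm2 and Lcn2. Of these only a part is printed. Alternatives changed the pseudocount, filter, scaling, depth, library type, weights, top level, libraries and replicate block. The top level correction raised each level by a logarithm of its share of the top level, with that share capped at 95%. The fit was tested on simulated data. Tables and figures were made in Python 3.11.15 (pandas 2.3.3, numpy 2.4.6, matplotlib 3.10.9, statsmodels 0.14.6, scipy 1.17.1).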

Additional observations from a re-analysis of the deposited data

Results flagged for a closer look

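Of 50 groups of libraries (10 members in 5 groups), 7 held a library that stood far from the rest of its group. Chance gives about 1 in 20 for independent groups. These groups are not independent, since the members vary together in the same libraries, so the count cannot be set against that rate. Library TAC 2 stood above the other TAC libraries for Saa4 (293.9 RPKM), Orm2 (62.31 RPKM) and Lcn2 (245.3 RPKM). GF_TAC 2 stood above the other GF_TAC libraries for Saa2 (262.7 RPKM) and Lcn2 (198.5 RPKM). JAX 2, the deepest library, stood below the other JAX libraries for Lcn2 (7.105 RPKM) and Apcs (75.21 RPKM).

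For 2 members the donor difference in recipients differed from the vendor difference by a test of the interaction (limma). It was -0.7806 for Crp (adjusted p = 0.00864) and -2.643 for Saa1 (adjusted p = 0.025) on the log2(RPKM + 1) scale.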

How the results depend on the processing

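Under the alternatives, 1344 of the differences of single members kept their direction and side of the threshold, 55 kept the direction but no longer passed, 26 came to pass and 45 turned. For TAC minus JAX the count of members called, 1, became 0 without a filter, with depth as a term, with only the groups compared, and without TAC 2 and GF_TAC 2 together (chosen after seeing the data), 2 with TPM and without GF_JAX 1 and GF_JAX 4, and 3 with array weights and when library type was a term. It stayed at 1 after correction for the shared top level, where Crp passed (0.0243) and Saa1 did not (0.0839). Of all genes 0.294% were called in the main fit, 1.78% with array weights and 0.563% with library type as a term. The other alternatives named here called 0.13% to 0.506% of all genes. For GF minus JAX the count of 8 became 0 with library type as a term, while the share of all genes called went from 24% to 1.93%. There depth as a term lost Lcn2 and Apcs (limma adjusted p = 0.0676 and 0.0994), no filter and TPM lost Apcs (0.0697 and 0.126), and Saa2 came to pass with array weights, with only the groups compared and without TAC 2 and GF_TAC 2 (0.0487, 0.00476 and 0.0235). For GF minus TAC the count of 2 became 1 without a filter, 0 with library type as a term and 4 without TAC 2 and GF_TAC 2. The share of all genes called was 24.3% in the main fit and 14.7%, 0.587% and 21.9% in these fits. Saa4 came to pass there with array weights and without GF_JAX 1 and GF_JAX 4 (limma adjusted p = 0.00625 and 0.0459), and TPM lost Orm2 (0.054) while Saa3 passed as lower (0.0419). For the interaction the count of 2 became 0 with depth as a term and 1, Crp, after correction for the shared top level, where Saa1 was lost (0.059). It rose to 3 with Saa4 when library type was a term, with array weights and without GF_JAX 1 and GF_JAX 4 (limma adjusted p = 0.0193, 0.0291 and 0.0255). Of all genes 1.63%, 2.31% and 1.67% were called in those fits. The share was 1.48% in the main fit, 0.832% with depth as a term and 1.17% after correction for the shared top level. The causes were not tested. The other 3 comparisons had 0 called under every alternative that was run.

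With library type as a term, Orm2 and Orm3 turned to -0.171 and -0.308 in GF_TAC minus GF_JAX, Saa1, Saa4 and Orm2 to 0.182, 0.182 and 0.09 in GF_JAX minus GF, and Apcs to -0.071 in the interaction; these values were the same without GF_JAX 1 and GF_JAX 4. That term also turned Saa1, Saa4, Orm1, Orm2 and Apcs to -0.665, -0.016, -0.184, -0.177 and -0.086 in GF minus TAC. With depth as a term Orm1 turned to 0.074 in GF_TAC minus GF_JAX and to -0.076 in GF_JAX minus GF. With TPM Saa3 turned to -0.108 in GF minus JAX and Crp to -0.045 in GF minus TAC. With array weights Saa4 turned to 0.017 in GF_JAX minus GF and Lcn2 to 0.241 in GF minus TAC. Without TAC 2 and GF_TAC 2, Apcs turned to -0.038 in TAC minus JAX and Lcn2 to 0.499 in GF minus TAC.

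With each library left out in turn, the count called was 0 to 2 in TAC minus JAX and 5 to 7 in GF minus JAX. It was 1 to 4 in GF minus TAC and 1 to 4 in the interaction. In that order, the share of all genes called was 0.13% to 0.351%, 12.6% to 30.3%, 13.7% to 30.3% and 0.734% to 3.1%. Saa1 in TAC minus JAX (1.61 to 2.51) lost its call without any single JAX library or TAC 2, TAC 3 or TAC 4 (limma adjusted p up to 0.151). Apcs in GF minus JAX (0.612 to 0.784) lost it without any single library of either group (up to 0.131), Orm1 (0.479 to 0.798) without JAX 2, JAX 3, JAX 4, GF 1 or GF 4 (up to 0.110), and Lcn2 (1.92 to 2.24) without JAX 2, GF 1 or GF 3 (up to 0.0716). Orm2 in GF minus TAC (1.03 to 1.63) lost it without any single library but TAC 2 (up to 0.116), and Saa1 in the interaction (-3.07 to -2.16) without JAX 1 or JAX 4 (up to 0.059). Some differences turned: Apcs in TAC minus JAX (-0.038 to 0.482), Orm3 in GF_TAC minus GF_JAX (-0.218 to 0.673), Saa1 (-0.462 to 0.084), Saa4 (-0.092 to 0.075) and Crp (-0.08 to 0.044) in GF_JAX minus GF, Orm2 (-0.382 to 0.087) and Lcn2 (-0.797 to 0.028) in GF_TAC minus GF, Saa1 (-0.158 to 0.749), Orm1 (-0.001 to 0.318), Lcn2 (-0.523 to 0.499) and Crp (-0.007 to 0.15) in GF minus TAC, and Apcs in the interaction (-0.061 to 0.46).

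With the replicate number as a block the counts called were the same as without it. They were 1, 8, 2 and 2 in TAC minus JAX, GF against JAX, GF against TAC and for the interaction. Of all genes 0.285%, 21%, 21.5% and 1.06% were called with the block. Same-numbered libraries of different groups correlated at -0.121 to 0.150 (median 0.013) over all tested genes, and the pairing was not used. A link between same-numbered libraries that affects few genes was not tested. Depth limits Orm3 in JAX, which rests on 0 to 8 reads per library.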
